A study of Rattus norvegicus with 33 samples.

Results

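The circadian clock output genes were followed in rat soleus, a slow postural hindlimb muscle, across the 11 groups of a study of paralyzed and overloaded muscle. The 10 genes were the period genes Per1, Per2 and Per3, the cryptochrome genes Cry1 and Cry2, the transcription factor genes Dbp, Tef and Nfil3, and the nuclear receptor genes Nr1d1 and Nr1d2. They were chosen by gene symbol among 14506 genes that had an array row annotated with 1 symbol, and each had 1 such row. Soleus RNA of 33 female Wistar rats, 3 per group, was hybridized to 1 Affymetrix array each. In the spinal cord experiment (15 rats), SCI rats had a complete spinal cord transection at 9 weeks of age. They had sham surgery for implantation of a stimulator with left gastrocnemius tenotomy 14 weeks later, and tissue was collected 21 days after that surgery. SCI-ES rats had the transection, an implanted stimulator and the tenotomy, and received electrical stimulation (ES) for 1, 3 or 7 days, started 16 weeks after transection, for 1 hour per day at 1.5 V and 40 Hz. Sham-SCI rats had the laminectomy with the cord left uncut and neither the implantation surgery nor the tenotomy, so SCI against Sham-SCI holds all of these procedures. SCI-ES rats of the earlier days were also collected sooner after tenotomy than SCI rats. In the ablation experiment (18 rats of 22 to 23 weeks), GA rats had the left gastrocnemius, a synergist of soleus, cut from the Achilles tendon, and Sham-GA rats had the same surgery without the cut. Soleus was collected 1, 3 or 7 days later. Days and side follow the sample titles and the study's methods, whereas the series' design text gives 2 days in place of 3 for ES and ablation on both sides. The methods also name an exon array, while rows are named here through the platform annotation of a gene array of the same maker. The rats were kept on equal light and dark periods, and the hour of collection is not given in the sources used here, so no level below is placed at a time of day.

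The mammalian clock is a transcriptional loop that runs in most cells, skeletal muscle included. BMAL1 paired with CLOCK or NPAS2 binds E-boxes and drives the period, cryptochrome, Dbp, Tef and Nr1d genes, and the PER and CRY proteins return to block that drive. DBP and TEF activate genes through D-boxes, at which NFIL3 represses, and the Nr1d products (REV-ERB alpha and beta) repress Bmal1 and Nfil3. Per1 and Per2 are also known to respond to glucocorticoids and to cAMP signaling.

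Promoter windows of 300 bases (250 before a transcription start and 50 after it) were taken from RefSeq for GRCr8. By symbol 9 of the 10 members matched (all but Cry1), with 1 window each except Nr1d1 with 2. The windows were searched on both strands for the E-box CACGTG, the D-box TTATGTAA, the ROR element TAGGTCA and the cAMP element TGACGTCA. The E-box was present in 2 of the 10 windows (Tef and the second window of Nr1d1), against 6.42% of all 33469 windows. The D-box was present in 1 window (Per2), against 0.893% of all windows. Neither the ROR element nor the cAMP element was found in a member's window, against 2.63% and 1.83% of all windows. The windows of Per1, Per3 and Tef lay inside the annotated genes, as did the second window of Nr1d1, the 1 with the E-box. Per1 starts at base 54299002 and its window at 54304126, and Tef starts at 115197180 and its window at 115206577. The 5′ ends of Per1, Per3 and Tef were therefore not searched. The first window of Nr1d1, which covers the 5′ end of that gene, held no match. The windows with a match are printed because Per2 and Tef are among the genes that changed below and Nr1d1 shares the E-box with Tef. Capitals mark the motif, which starts at base 59 in Per2, at base 53 in Tef and at base 60 in Nr1d1, counted from the 5′ end of the window. The first is Per2 (chr9:99496944-99497243, minus strand), followed by Tef (chr7:115206577-115206876, plus strand) and the second window of Nr1d1 (chr10:84229405-84229704, minus strand).
Per2: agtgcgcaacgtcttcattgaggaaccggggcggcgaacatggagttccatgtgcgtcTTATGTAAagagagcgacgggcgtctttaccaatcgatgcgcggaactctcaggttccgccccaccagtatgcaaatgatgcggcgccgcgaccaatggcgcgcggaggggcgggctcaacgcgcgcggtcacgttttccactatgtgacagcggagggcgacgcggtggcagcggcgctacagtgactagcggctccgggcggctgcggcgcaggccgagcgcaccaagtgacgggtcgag
Tef: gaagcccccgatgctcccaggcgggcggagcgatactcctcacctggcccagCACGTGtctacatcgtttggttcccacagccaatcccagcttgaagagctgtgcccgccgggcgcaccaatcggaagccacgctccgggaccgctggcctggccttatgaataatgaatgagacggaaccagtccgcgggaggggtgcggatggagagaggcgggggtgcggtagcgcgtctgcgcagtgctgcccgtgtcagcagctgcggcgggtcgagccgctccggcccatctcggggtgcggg
Nr1d1: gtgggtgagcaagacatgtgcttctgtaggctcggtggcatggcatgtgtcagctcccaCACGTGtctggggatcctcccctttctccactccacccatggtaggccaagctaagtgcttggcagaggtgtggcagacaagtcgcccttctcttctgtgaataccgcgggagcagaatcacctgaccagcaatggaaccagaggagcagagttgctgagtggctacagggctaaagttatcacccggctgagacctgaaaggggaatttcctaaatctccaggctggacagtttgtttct

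The values are the authors' normalized log2 intensities, so a difference of 1 is a doubling, and levels are compared between groups within a gene and not between genes. Defining genes of skeletal muscle were bright on every array: Acta1 lay between 13.98 and 14.14 and the slow myosin gene Myh7 between 11.27 and 13.66. Each array correlated with the mean of its 2 group mates at r of 0.971 to 0.996 over all genes. The arrays furthest from their group mates were Sham-GA 3 days replicate 2 and Sham-GA 1 day replicate 1. The call rule for a change was a difference of at least 1.5-fold with an adjusted p below 0.05 (limma, Benjamini-Hochberg over all genes tested). Nothing says that animals of a group shared a litter or a day. P-values rest on the spread among the 3 rats of a group, pooled over the groups of a fit and moderated across genes.

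The group means of a member spanned 0.39 (Nr1d2) to 1.07 (Nfil3) on the log2 scale over the 5 groups of the spinal cord experiment. Over the 6 groups of the ablation experiment they spanned 0.64 (Cry1) to 1.69 (Per1). Sham-SCI had the lowest mean of the 5 groups for Per1, Per2, Per3, Dbp, Tef, Nr1d1 and Nr1d2, and the highest for Cry1, Cry2 and Nfil3. In the ablation experiment GA 3 days had the lowest mean for Per1, Per2, Per3, Cry2, Dbp, Tef and Nr1d2. When the group means of each gene were put in order, arrays of neighboring groups overlapped in 36 of 40 pairs in the spinal cord experiment. In the ablation experiment they overlapped in 43 of 50 pairs. Neighbors in such an order are the closest groups, which makes overlap likely for any gene. No share over all genes was computed, so these counts show no trait of the members. Among the separated pairs were SCI from Sham-SCI for Per1 and for Per3, and GA 1 day from Sham-GA 3 days for Per2.

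**Figure D1:**
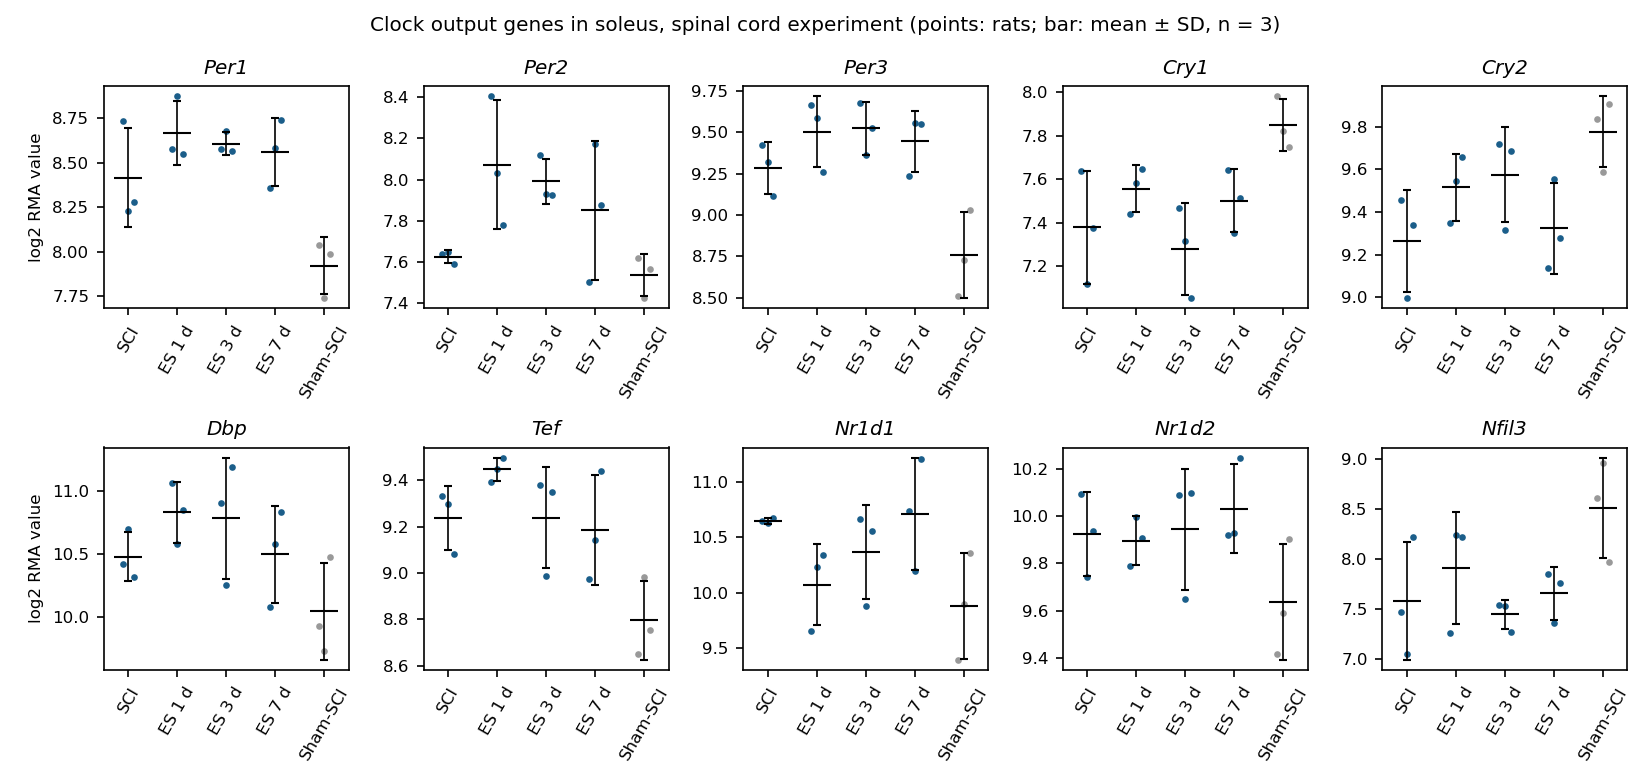
Log2 RMA value (vertical axis) of each clock output gene in the spinal cord experiment, by group: SCI, SCI-ES at 1, 3 and 7 days, and Sham-SCI. Points are single rats and bars are mean ± SD (n = 3); for Per1 and Per3 the 12 transected rats lie above the 3 Sham-SCI rats, and for Cry1 below them.

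The comparison of SCI with Sham-SCI asks how soleus differed months after loss of descending input. None of the 10 members was called, where 0.401% of all 14456 genes tested were. Of the members 7 had an unadjusted p under 0.05, against 14.6% of all genes, and 6 had arrays that did not overlap between the groups, against 22.3% of all genes. The E-box repressor genes were split. Per1 had values of 8.74, 8.23 and 8.28 in SCI rats, against 8.04, 7.74 and 7.99 in Sham-SCI rats (log2 difference 0.49, SE 0.150, limma adjusted p = 0.156). Per3 had 9.42, 9.32 and 9.11 in SCI rats, against 8.51, 8.73 and 9.03 in Sham-SCI rats (0.53, SE 0.157, adjusted p = 0.151). Every SCI array was above every Sham-SCI array for both genes. Per2, the third period gene, averaged 7.63 ± 0.03 in SCI and 7.54 ± 0.10 in Sham-SCI (SD, n = 3 each), and its groups overlapped. The cryptochrome genes, whose proteins are the stronger repressors of the loop, lay the other way. Cry1 had 7.64, 7.12 and 7.38 in SCI rats, against 7.98, 7.82 and 7.75 in Sham-SCI rats (-0.47, SE 0.144, adjusted p = 0.158). Cry2 had 9.46, 8.99 and 9.34 in SCI rats, against 9.84, 9.59 and 9.91 in Sham-SCI rats (-0.51, SE 0.160, adjusted p = 0.163). For both cryptochromes every SCI array was below every Sham-SCI array.

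The D-box factors and the Nr1d genes had differences from 0.29 (Nr1d2) to 0.77 (Nr1d1) and, for Nfil3, of -0.93, again without a call. Tef, a D-box activator, had 9.33, 9.30 and 9.08 in SCI rats, against 8.65, 8.98 and 8.75 in Sham-SCI rats (0.44, SE 0.143, adjusted p = 0.174), and the groups did not overlap. Dbp, the other D-box activator, differed by 0.43 (SE 0.259, adjusted p = 0.474) with overlapping arrays. Nfil3, the D-box repressor, had 7.47, 7.05 and 8.22 in SCI rats, against 8.60, 8.96 and 7.97 in Sham-SCI rats (-0.93, SE 0.325, adjusted p = 0.201). One SCI rat therefore lay above the lowest Sham-SCI rat. Nr1d1 had 10.65, 10.62 and 10.68 in SCI rats, a narrow spread, against 9.40, 9.90 and 10.35 in Sham-SCI rats (0.77, SE 0.291, adjusted p = 0.243). Arrays overlapped for Nr1d2. The median over the 10 members was 0.36, beside -0.02 over all genes.

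Because the 4 transected groups (SCI and SCI-ES at 1, 3 and 7 days, 12 rats) lay together for several members, they were also set as a mean of groups against Sham-SCI, a comparison chosen after seeing the data. The SCI arrays enter this comparison too, so it is not a second sample of them. The hour of collection is not known here for any of these groups. A difference from Sham-SCI, in this comparison or for SCI alone, therefore cannot be told apart from a difference between hours of collection. Here 2 of 10 members rose by the call rule, Per1 and Per3, where 1.68% of all genes were called and 0.941% called higher. Per1 lay between 8.23 and 8.87 (median 8.58) in the 12 transected rats, against 8.04, 7.74 and 7.99 in Sham-SCI rats, and was 1.56-fold higher (0.64, SE 0.119, adjusted p = 0.0165). Per3 lay between 9.11 and 9.68 (median 9.48) in transected rats, against 8.51, 8.73 and 9.03 in Sham-SCI rats, and was 1.61-fold higher (0.68, SE 0.125, adjusted p = 0.01585). The 12 arrays were above the 3 for both genes. Arrays did not overlap for 3 members (Per1, Per3 and, lower, Cry1), against 4.3% of all genes.

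The other members had an unadjusted p under 0.05, as all 10 did, against 18.4% of all genes. Tef passed the adjusted threshold (0.48, SE 0.113, adjusted p = 0.0409) but at 1.40-fold stayed under the fold minimum. Nfil3 was at -0.87 (SE 0.257, adjusted p = 0.0903), Cry1 at -0.42 (adjusted p = 0.06835) and Cry2 at -0.36 (adjusted p = 0.149). Dbp was at 0.60, Nr1d1 at 0.57, Per2 at 0.35 and Nr1d2 at 0.31, with adjusted p from 0.135 to 0.206. The calls rest on 3 Sham-SCI rats: Per1 lost its call without any 1 of them (adjusted p up to 0.0988, or a difference down to 0.55), and Per3 without replicate 1 or 2 (adjusted p up to 0.0880).

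Other genes moved with the transected groups. In whole muscle, fewer cells of a type and less RNA per cell cannot be told apart. The 6 slow fiber genes had a mean deviation (log2, from each gene's median over the 15 arrays) of -0.93 to 0.99 in transected rats, against 0.73 to 1.17 in Sham-SCI rats. The 6 fibroblast genes had -0.92 to 0.92 in transected rats, against -1.49 to -0.94 in Sham-SCI rats. The 13 glucocorticoid-responsive genes had -0.09 to 0.20 in transected rats, against -0.40 to -0.12 in Sham-SCI rats. The fibroblast and glucocorticoid lists separated the groups as Per1 and Per3 did, the slow fiber list overlapped, and the part of these 3 lists in the result was not tested. The 6 macrophage genes overlapped, at -0.999 to 1.28 in transected rats and -1.51 to 0.58 in Sham-SCI rats, as did the 6 skeletal muscle genes, at -0.40 to 0.37 and 0.24 to 0.38.

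**Figure D2:**
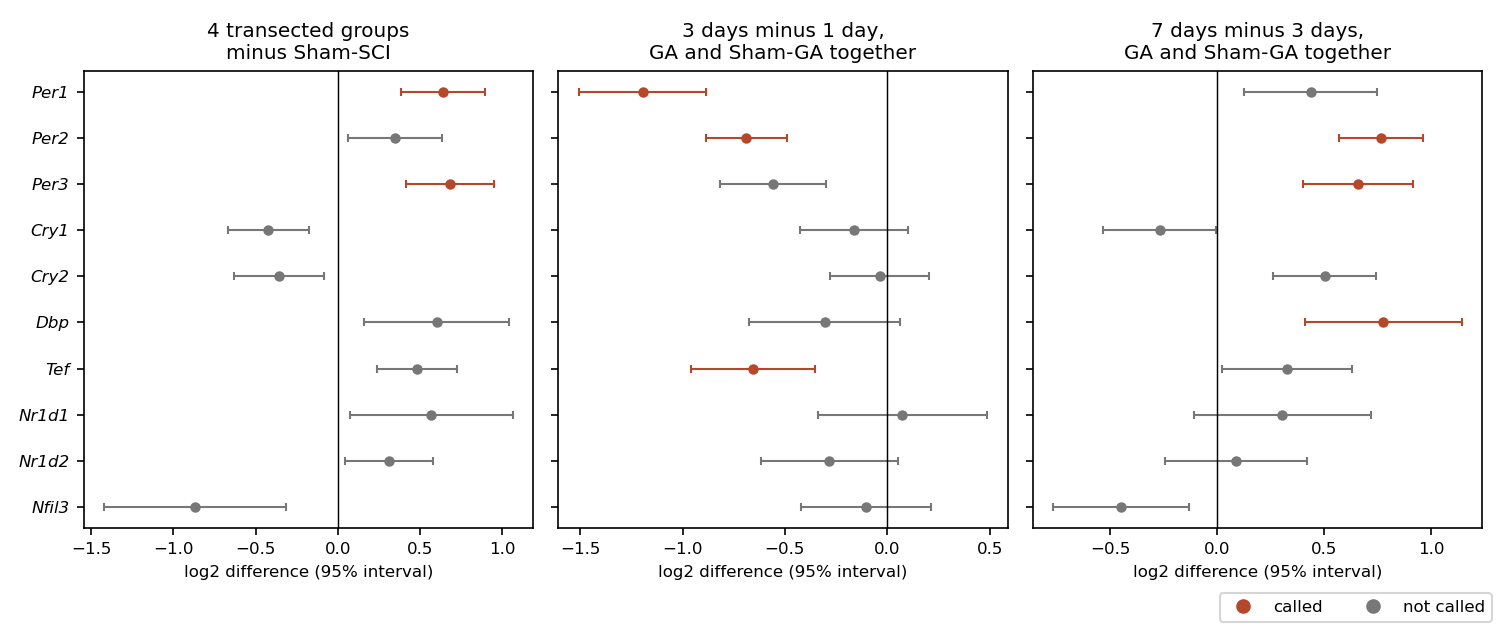
Log2 difference with 95% interval (horizontal axis) of each clock output gene in 3 comparisons that called members, all chosen after seeing the data; colored points were called. Per1 and Per3 are called in the first panel, Per1, Per2 and Tef in the second, and Per2, Per3 and Dbp in the third.

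Stimulation of the paralyzed muscle was compared with SCI at each day, the question being how the output genes followed restored contraction. The paper puts tissue collection about a day after the last ES session, so levels soon after a session were not measured. No member and no gene at all was called at 1, 3 or 7 days (0% of 14456 genes at each day, with an unadjusted p under 0.05 for 7.28%, 3.07% and 2.84% of genes). Unadjusted p was under 0.05 for 1 member at 1 day and 1 at 3 days, in both cases Per2, and for none at 7 days. Per2 had 8.41, 8.03 and 7.78 at 1 day of ES, 8.12, 7.93 and 7.93 at 3 days, and 7.50, 8.17 and 7.88 at 7 days, against 7.64, 7.65 and 7.59 in SCI rats. The arrays at 1 and 3 days were above the SCI arrays, and those at 7 days overlapped with them. The differences were 0.45 (SE 0.168, adjusted p = 0.648) at 1 day, 0.37 at 3 days and 0.225 at 7 days. Nr1d1 had 9.65, 10.23 and 10.34 at 1 day of ES, below the 10.65, 10.62 and 10.68 of SCI rats (-0.57, 95% interval -1.20 to 0.05, adjusted p = 0.688). Its difference from SCI was -0.28 at 3 days and 0.06 at 7 days. Tef at 1 day (9.39, 9.45 and 9.50) was likewise above each SCI array (9.33, 9.30 and 9.08), by 0.21. These made 3 members without overlap at 1 day, against 11.4% of all genes, 1 at 3 days, against 9.12%, and none at 7 days, against 7.57%.

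The arrays of the other 7 members overlapped with SCI at each day. The largest of their differences was 0.35 for Dbp at 1 day (95% interval -0.21 to 0.91). The medians over the 10 members were 0.235, 0.11 and 0.09 at 1, 3 and 7 days, beside -0.0036, -0.0060 and 0.0063 over all genes. These 3 comparisons share the 3 SCI arrays. Between ES days no member was called either (0% of all genes on both): SCI-ES 3 days minus SCI-ES 1 day spanned -0.46 (Nfil3) to 0.29 (Nr1d1), and SCI-ES 7 days minus SCI-ES 1 day spanned -0.33 (Dbp) to 0.64 (Nr1d1). At 3 days against 1 day of ES no member had an unadjusted p under 0.05, against 13.1% of all genes, and Tef was the 1 member without overlap (lower), against 16.6%. At 7 days against 1 day Nr1d1 was the 1 member with an unadjusted p under 0.05, against 12.1% of all genes, and none was without overlap, against 15.3%. Across the 5 groups of the experiment a moderated F test, added after seeing the data, passed an adjusted p of 0.05 for none of the members and for 0.187% of all genes. Its lowest adjusted p among the members was 0.140 for Per3.

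Overload by GA was compared with Sham-GA on the same day. No member was called at 1 day (0.0554% of all 14451 genes were), at 3 days or at 7 days (0% on both). At 1 day 5 of 10 members had arrays that did not overlap, against 16.6% of all genes, and 3 had an unadjusted p under 0.05, against 13.7%. Nfil3 had 9.18, 8.66 and 9.16 in GA rats, against 8.32, 7.64 and 8.07 in Sham-GA rats (0.99, SE 0.210, adjusted p = 0.118). It was 1.98-fold higher with every GA array above every Sham-GA array, and passed the call rule when GA 1 day replicate 2 or Sham-GA 1 day replicate 1 was left out (adjusted p from 0.0298 to 0.464 over the 6 omissions). Dbp, which acts against Nfil3 at D-boxes, had 10.12, 10.11 and 9.93 in GA rats, below the 10.22, 11.24 and 10.30 of Sham-GA rats (-0.53, SE 0.243, adjusted p = 0.351). Per3 (-0.38) and Nr1d2 (-0.37) were likewise lower in every GA rat and Cry1 (0.28) higher in every GA rat, with adjusted p from 0.349 to 0.505.

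The 6 neutrophil genes moved with this day and operation. Their mean deviation was 1.20 to 2.19 in GA rats, against -0.14 to 1.67 in Sham-GA rats at 1 day, and their part in the Nfil3 difference was not tested. Fos and the 8 other early genes of cAMP and calcium signaling that were measured had a mean deviation of 0.50 to 1.03 in GA rats, against -0.04 to 0.29 in Sham-GA rats. None of these early genes was called.

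At 3 days all 10 members had a difference below 0, from -0.65 (Per1) to -0.01 (Nfil3), with a median of -0.24, beside -0.03 over all genes, of which 44.8% were above 0. Per1 had 7.07, 6.69 and 7.26 in GA rats, against 7.29, 7.91 and 7.76 in Sham-GA rats (-0.65, SE 0.207, adjusted p = 0.288), and Cry2 had 9.09, 9.27 and 9.11 in GA rats, against 9.67, 9.38 and 9.60 in Sham-GA rats (-0.39, adjusted p = 0.288). The 6 macrophage genes separated the same groups, with a mean deviation of 0.50 to 0.73 in GA rats, against -1.12 to 0.40 in Sham-GA rats, and their part in these differences was not tested. Per1 and Cry2 were the 2 members without overlap, against 13.5% of all genes, and the 2 with an unadjusted p under 0.05, against 16.5%. At 7 days the members spanned -0.30 (Nr1d1) to 0.29 (Nfil3), and arrays overlapped for each of them, where 11.2% of all genes had no overlap. No member had an unadjusted p under 0.05 on that day, against 2.63% of all genes. Averaged over the 3 days, 9 of 10 members lay below 0 and Nfil3 above it (0.42, SE 0.121, adjusted p = 0.166), with none called (0% of all genes). Per3, Nr1d2 and Nfil3 were the 3 members with an unadjusted p under 0.05 in this average, against 19.3% of all genes.

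In the ablation experiment members were called between days, across both operations. A moderated F test over the 6 groups of the ablation experiment, added after seeing the data, passed an adjusted p of 0.05 for 6 of 10 members, against 12.3% of all genes. Per1 had an adjusted p of 0.00103, Per2 of 0.0009995, Per3 of 0.0125, Nfil3 of 0.0133, Cry2 of 0.0273 and Dbp of 0.0462. Tef (0.0564), Cry1 (0.113), Nr1d2 (0.307) and Nr1d1 (0.411) did not pass. The day contrasts that follow, with GA and Sham-GA together as a mean of the 2 groups of a day, were also chosen after seeing the data, and both use the 3-day arrays. Each day holds different rats, and the hour of collection on each day is not known here. A difference between days therefore cannot be told apart from a difference between hours of collection.

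Per2 showed the clearest course. It had 8.05, 7.74 and 7.84 in GA rats and 7.69, 8.20 and 7.79 in Sham-GA rats at 1 day. At 3 days it had 7.22, 7.04 and 7.26 in GA rats and 7.08, 7.40 and 7.17 in Sham-GA rats. At 7 days it had 7.98, 7.88 and 7.98 in GA rats and 8.01, 7.99 and 7.94 in Sham-GA rats. The 6 rats of 3 days lay below the 12 rats of the other days. Per2 was 1.61-fold lower at 3 days than at 1 day (-0.69, SE 0.0927, adjusted p = 0.00295) and 1.70-fold higher at 7 days than at 3 days (0.77, SE 0.0927, adjusted p = 0.000359). Each change was called in the GA arm (-0.70, adjusted p = 0.0114, where 3.09% of all genes were called, and 0.77, adjusted p = 0.0195, where 0.242% were). In Sham-GA rats the first difference was -0.68 without a call (adjusted p = 0.258) and the later rise was 0.76 with one (adjusted p = 0.0111, where 1.29% of all genes were called). The within-arm calls are fragile: without 1 rat the GA rise kept its call in 1 of 6 cases (adjusted p up to 0.119), the Sham-GA rise in 2 of 6 (up to 0.0819) and the GA fall in 4 of 6 (up to 0.0586).

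**Figure D3:**
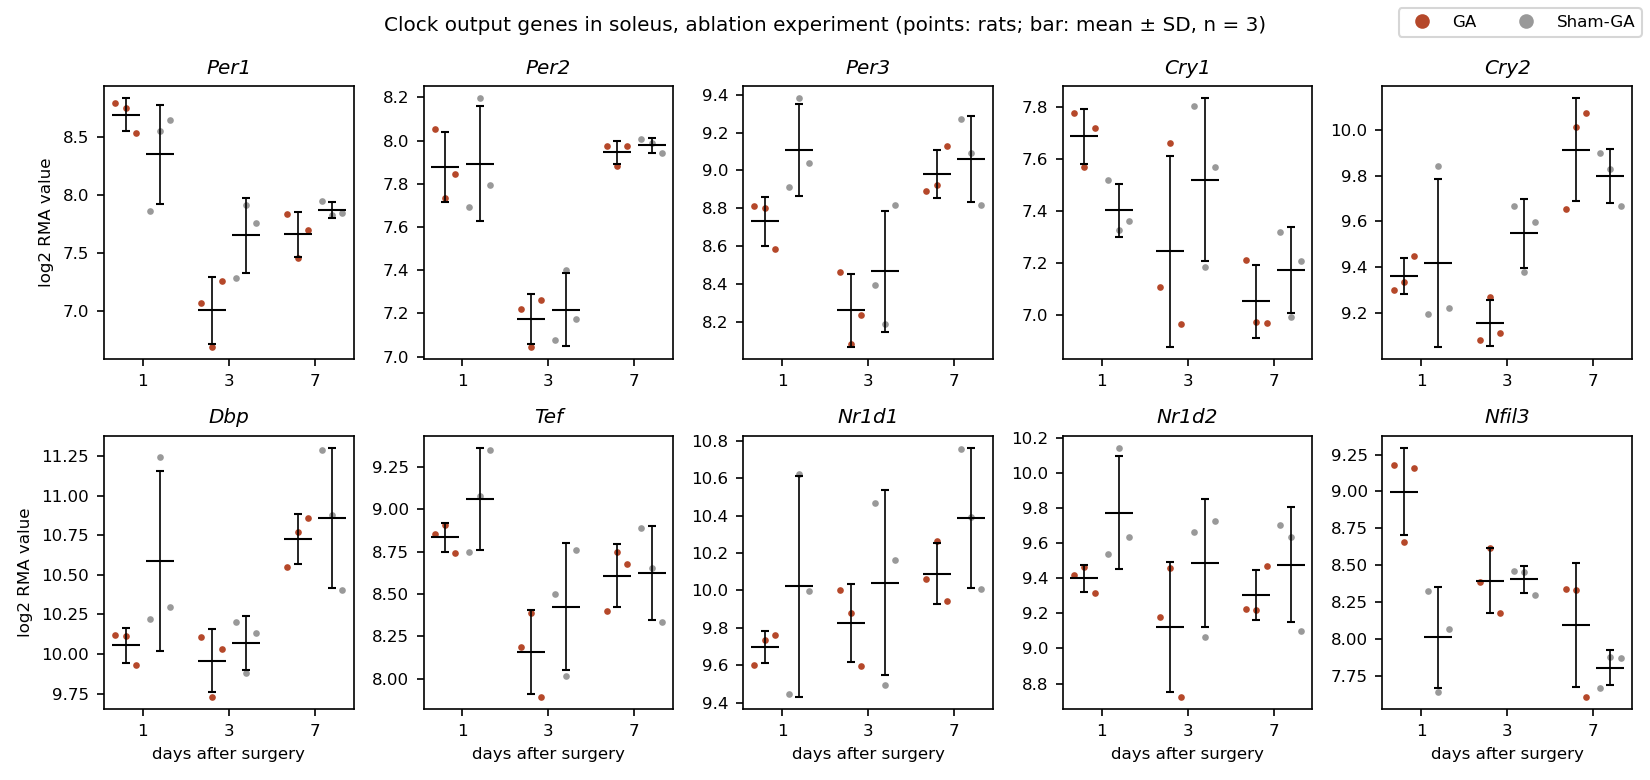
Log2 RMA value (vertical axis) of each clock output gene by day after the operation (1, 3 and 7, horizontal axis), GA in color and Sham-GA in gray. Points are single rats and bars are mean ± SD (n = 3); for Per2 the 6 rats at 3 days lie between 7.04 and 7.40, under the 12 rats at 1 and 7 days.

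Per1 differed more than Per2 between 1 and 3 days, and less between 3 and 7 days. It had 8.79, 8.76 and 8.53 in GA rats and 7.86, 8.55 and 8.65 in Sham-GA rats at 1 day. At 3 days the values were 7.07, 6.69 and 7.26 in GA rats and 7.29, 7.91 and 7.76 in Sham-GA rats, and at 7 days 7.83, 7.45 and 7.70 in GA rats and 7.95, 7.82 and 7.84 in Sham-GA rats. One Sham-GA rat at 1 day (7.86) lay under the highest rat at 3 days (7.91), and the other 5 lay above all rats of 3 days. Per1 was 2.29-fold lower at 3 days than at 1 day (-1.19, SE 0.146, adjusted p = 0.00208). The fall was called in GA rats (-1.69, adjusted p = 0.00223) and was -0.70 in Sham-GA rats (adjusted p = 0.668), and the gap between these 2 differences was not tested. From 3 to 7 days Per1 differed by 0.44 (adjusted p = 0.0893).

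Among the remaining period and D-box genes the days separated Per3, Dbp and Tef in part. Tef fell to between 7.89 and 8.76 at 3 days, against 8.74 to 9.35 at 1 day (-0.66, SE 0.143, adjusted p = 0.0267), and was 0.32 higher at 7 days (adjusted p = 0.199). Without 1 rat the call of Tef was lost in 6 of 12 cases (adjusted p up to 0.0671). Per3 was lower at 3 days than at 1 day with an adjusted p of 0.0270 but under the fold minimum (-0.56). It rose to between 8.82 and 9.27 at 7 days, against 8.08 to 8.81 at 3 days (0.66, SE 0.121, adjusted p = 0.00632). Dbp rose to between 10.40 and 11.29 at 7 days, against 9.73 to 10.20 at 3 days (0.78, SE 0.172, adjusted p = 0.0169). For Per3 and Dbp each 7-day rat lay above each 3-day rat.

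Thus 3 of 10 members fell at 3 days against 1 day, where 1.34% of all genes were called and 0.318% called lower. At 7 days against 3 days 3 of 10 rose, where 2.34% were called and 2.03% called higher. The calls of Per1 and Per2 at 3 days and of Per2, Per3 and Dbp at 7 days were kept in 12 of 12 cases when 1 rat was left out. Cry2 passed the adjusted threshold at 7 days against 3 days (0.50, adjusted p = 0.0182) under the fold minimum. Nfil3 was at -0.11 at 3 days against 1 day and at -0.45 at 7 days against 3 days (adjusted p = 0.0861), and Cry1 at -0.16 and -0.27. Neither Nr1d gene was called: Nr1d1 was at 0.07 and 0.30 and Nr1d2 at -0.28 and 0.09, with adjusted p from 0.399 to 0.908. With both operations together, 4 members had an unadjusted p under 0.05 at 3 days against 1 day, against 15.9% of all genes, and 1 (Per2) was without overlap, against 0.955%. At 7 days against 3 days these were 8 members, against 21.7% of all genes, and 3 (Per2, Per3 and Dbp), against 3.5%.

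The arms taken singly gave the following counts. In GA rats at 3 days against 1 day 6 members had an unadjusted p under 0.05, against 19.8% of all genes, and 6 were without overlap, all lower, against 24.2%. Later, at GA 7 days against GA 3 days, 6 had an unadjusted p under 0.05, against 11.1%, and 6 were without overlap, all higher, against 17.3%. In Sham-GA rats at 7 days against 3 days 4 had an unadjusted p under 0.05, against 16%, and 5 were without overlap, against 17.3%. Sham-GA rats at 3 days against 1 day had 5 members with an unadjusted p under 0.05 (Per1, Per2, Per3, Dbp and Tef, all lower), against 5.43% of all genes, and 3 without overlap (Per2, Per3 and Dbp), against 9.67%. Sham-GA rats at 7 days against 1 day had 3 with an unadjusted p under 0.05, against 24.8%, and 1 without overlap (Cry1, lower), against 28.5%. Within the Sham-GA arm no member was called at 3 or at 7 days against 1 day, where 0% and 6.57% of all genes were. At 7 days against 1 day in that arm Per1 was called lower when Sham-GA 1 day replicate 1 was left out (adjusted p = 0.0382) and Cry2 higher without replicate 2 (adjusted p = 0.0181), against 0.161 and 0.151 with all rats.

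Cell type genes also moved between the days. At 1, 3 and 7 days the 6 neutrophil genes had a mean deviation of -0.14 to 2.19, -0.08 to 0.37 and -0.29 to -0.13, and the 6 fibroblast genes of -1.54 to -0.86, -1.53 to 0.43 and 0.48 to 1.00. The part of the neutrophil and fibroblast genes in the changes between days was not tested. The glucocorticoid-responsive genes had mean deviations of 0.02 to 0.40, -0.21 to 0.16 and -0.52 to -0.02 at 1, 3 and 7 days, overlapping between neighboring days, and their part was not tested either. The skeletal muscle genes stayed between -0.39 and 0.17 on all 18 arrays.

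The activators of the loop were read from a list of 7 genes, 3 of which had a row: Bmal1, Clock and Npas2. Bmal1 had 8.33, 8.20 and 8.32 in GA rats and 7.98, 7.66 and 8.61 in Sham-GA rats at 1 day. It had 8.93, 9.37 and 8.65 in GA rats and 9.03, 8.85 and 9.07 in Sham-GA rats at 3 days, and 8.04, 7.98 and 7.94 in GA rats and 7.69, 8.22 and 8.43 in Sham-GA rats at 7 days. All 6 rats of 3 days were above the 12 others, the opposite order to Per2. Bmal1 rose at 3 days against 1 day (0.80, SE 0.160, adjusted p = 0.0183) and fell at 7 days against 3 days (-0.93, SE 0.160, adjusted p = 0.00423). Clock, which carries the activating partner of BMAL1, was 0.29 higher at 3 days (adjusted p = 0.0401) and 0.40 lower at 7 days in the same contrasts (-0.40, adjusted p = 0.00460), both under the fold minimum. Npas2, a relative of Clock, rose at 3 days (1.04, SE 0.212, adjusted p = 0.0196) and was at -0.13 at 7 days against 3 days (adjusted p = 0.789). Within Sham-GA rats Npas2 was called higher at 7 days against 1 day (1.17, SE 0.299, adjusted p = 0.0219).

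In the spinal cord experiment Bmal1 lay between 7.45 and 8.76 in the 12 transected rats, against 9.14, 9.02 and 8.70 in Sham-SCI rats (-0.71, SE 0.206, adjusted p = 0.0861), again opposite in sign to the period genes and without a call. At 3 days of ES it had 7.86, 7.87 and 7.69, below the 8.27, 8.76 and 8.69 of SCI rats (-0.77, SE 0.261, adjusted p = 0.9995), without a call. Of the other clock loop genes, 8 of 12 listed had a row. Usp2, a clock-linked deubiquitinase, fell at 3 days against 1 day in GA rats (-0.76, SE 0.203, adjusted p = 0.0490), where 3.09% of all genes were called. Bhlhe41, an E-box repressor, rose at 7 days against 3 days with both operations together (0.81, SE 0.216, adjusted p = 0.0384), where 2.34% were called. No other gene of that list was called in any of the 21 comparisons.

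**Figure D4:**
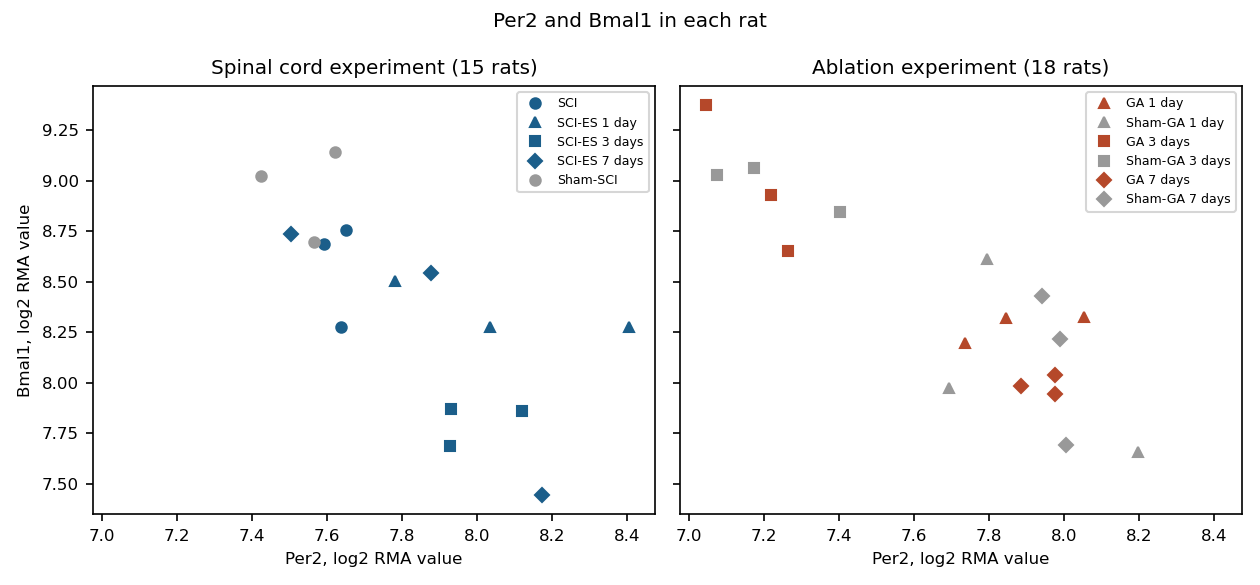
Log2 RMA values of Per2 (horizontal axis) and Bmal1 (vertical axis) in each rat of the spinal cord experiment (left) and the ablation experiment (right). The 6 rats at 3 days after surgery take the upper left of the right panel, with Per2 at 7.04 to 7.40 and Bmal1 at 8.65 to 9.37, apart from the 12 rats of the other days.

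Over the arrays Per2 and Bmal1 were correlated at r = -0.72 (15 arrays) and -0.89 (18 arrays). By the higher of its 2 correlations Bmal1 was the gene most opposite to Per2 among 14445, a rank looked up after the values were seen. Likeness to Per2 (the lower of the correlations over the 15 and the 18 arrays) was highest for Per3 (0.76), followed by Dbp (0.69) and Per1 (0.66). The most alike genes outside the members were Porcn (0.58), Crtc2 (0.58) and Crtc1 (0.56), Crtc1 and Crtc2 being coactivators of CREB. For Dbp the order was again led by members, Per3 (0.79) and Per2 (0.69), with Arsg (0.68), Sharpin (0.61) and Hcfc1r1 (0.60) after them. Nfil3 was most like Ifrd1 (0.71), Fosl1 (0.70) and Gpat3 (0.69), and Cry1 (0.64) was the member closest to it. Nr1d1 was most like Ppp3r2 (0.74), Prx (0.73) and Sobp (0.72), with Nr1d2 (0.60) as its closest member. These correlations are descriptions over arrays that share groups and normalization.

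With the group means taken out, the 33 arrays still held pairs that moved together from rat to rat. The highest of the 45 correlations between members were Nr1d1 with Nr1d2 (r = 0.78), Tef with Nr1d2 (0.71) and Per3 with Dbp (0.71). The lowest were Dbp with Nfil3 (-0.61) and Per3 with Nfil3 (-0.59), and 29 of the 45 pairs lay above 0. Per2 with Bmal1 was at -0.57. Each value comes from 33 arrays with 3 rats per group, after the means of 11 groups were removed. No background of such correlations over all genes was computed, and the part of arrays that stood apart as a whole was not tested.

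Genes downstream of the clock or of its inputs were counted for context. Of 14 clock-controlled metabolic and muscle genes 13 were tested: Ucp3, a mitochondrial uncoupling protein, rose in the transected groups (0.91, SE 0.223, adjusted p = 0.0488, where 1.68% of all genes were called), and Hk2, which phosphorylates glucose, fell at 7 days against 3 days (-1.01, SE 0.200, adjusted p = 0.00922, where 2.34% were called). Of 13 glucocorticoid-responsive genes 2 rose in the transected groups, Sgk1 (1.48, SE 0.251, adjusted p = 0.0118) and Errfi1 (0.93, SE 0.192, adjusted p = 0.0259), where 1.68% of all genes were called and 0.941% called higher. Fkbp5 of the same list had group means from 7.14 to 7.75 in the transected groups, on both sides of the 7.43 of Sham-SCI rats. At 7 days against 3 days the metallothionein genes Mt1 (-0.95, adjusted p = 0.0134) and Mt2A (-0.79, adjusted p = 0.00298) fell, 2 of 13 against 2.34% of all genes. Hk2 (-1.24), Mt1 (-1.82) and Mt2A (-1.63) were also called lower in Sham-GA rats at 7 days against 1 day, where 6.57% of all genes were called. Of 10 cAMP and calcium early genes 9 were tested, and Egr1 (-1.41, SE 0.246, adjusted p = 0.00984) and Nr4a1 (-0.67, SE 0.163, adjusted p = 0.0410) fell at 3 days against 1 day, where 1.34% of all genes were called. Both were also called lower within GA rats, as was Nr4a3 (-0.87, SE 0.125, adjusted p = 0.00449), where 3.09% of all genes were called. The direction of Egr1 and Nr4a1 there was that of Per1 and Per2, and no test set the lists against the members.

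The effects of ES and GA on the members were set against each other by a test of their difference over all 33 arrays. No member was called at 1 day (0.0554% of 14453 genes were), at 3 days or at 7 days (0% on both). At 3 days the ES effect minus the GA effect was 0.84 for Per1 (95% interval 0.29 to 1.38) and 0.70 for Cry2 (95% interval 0.23 to 1.17), with an unadjusted p under 0.05 for these 2 members, against 9.47% of all genes, and an adjusted p of 0.477 for both. At 1 day it was 0.885 for Dbp and 0.60 for Per3 (adjusted p = 0.298 and 0.264). Together with Per2 (0.46) they were the 3 members with an unadjusted p under 0.05 on that day, against 13% of all genes, and at 7 days there was none, against 3.14%.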

How the data were processed

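Soleus RNA of 33 rats was hybridized to 1 Affymetrix array per rat, and groups were taken from the sample titles. The deposited values are log2 intensities that the authors made with RMA in oligo (baseline subtraction, quantile normalization and median polish), in versions not given in the sources used here. Of 29214 rows, 15310 carried 1 gene symbol in the platform annotation, and the brightest row was used for each of 14506 genes. Genes with a mean log2 value of at least 3 were tested with limma 3.58.1 in R 4.3.3, in 1 fit of the 15 arrays of the spinal cord experiment and 1 fit of the 18 arrays of the ablation experiment, and in 1 fit of all 33 arrays for the differences between ES and GA effects. P-values were adjusted by Benjamini-Hochberg over all genes of a fit. Tables were handled with pandas 2.3.3 in Python 3.11.15. The members and gene lists were chosen with earlier results of these data known. All members are named, and called genes are named from the clock, clock-controlled, glucocorticoid-responsive and early gene lists. The cell type lists are compared by mean deviation only, without calls. The transected groups against Sham-SCI, the F tests and the contrasts that join GA with Sham-GA, compare GA days or set Sham-GA 7 days against 3 days were added after seeing the data. The scripts were tested on simulated data. Alternatives were other minimums, filters, normalizations, fits and row choices, a replicate block, and leaving out each rat. Replicate numbers were taken to pair rats only where all 3 pairs of same-numbered rats deviated together (r over 0.1), which held in 0 of 14 comparisons of 2 groups.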

Additional observations from a re-analysis of the deposited data

How the results depend on the processing

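The count of members called stayed within 1.5 times in 253 of 261 alternatives over 21 comparisons. Most of these comparisons had 0 calls to begin with, and there a count of 0 again was taken as unchanged. GA 7 days against GA 3 days had 1 call (Per2), but 2 after quantile normalization again, 3 in 1 fit of all 33 arrays and 0 with only the groups compared. With only the groups compared, GA 3 days against GA 1 day had 1 call (Per1) in place of 2, and Sham-GA 7 days against Sham-GA 3 days had 0 in place of 1. The transected groups had 1 call (Per3) with array medians set equal, in place of 2. By the methods' test across groups without adjustment, GA against Sham-GA had 1 call at 1 day (Nfil3) and 1 at 3 days (Per1), in place of 0. The share of all genes that pass this unadjusted rule was not computed, so these calls have no background to be read against. Fewer arrays enter the fits of only the groups compared; the cause of the other shifts was not tested. Leaving out 1 rat gave 0 to 2 calls for the transected groups, 1 to 3 for GA 3 days against GA 1 day, 2 to 4 for 3 days against 1 day with both operations, and 3 to 3 for 7 days against 3 days. It gave 0 to 1 for GA against Sham-GA at 1 day, for Sham-GA 7 days against 1 day, for GA 7 days against GA 3 days and for Sham-GA 7 days against Sham-GA 3 days, and 0 to 0 elsewhere. With the replicate number as a block the counts were unchanged: 0 in the planned comparisons, 2 for the transected groups, 2 and 1 within GA, 1 within Sham-GA, and 3 and 3 with both operations. No direction of a called member reversed in 142 alternatives, and 5 lost their call. With 3 rats per group and 1 tissue sample each, small differences could not be resolved, and the hour of collection is not known here.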
